A study of Mus musculus with 2 samples.

Results

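The cell cycle genes described here are 44 genes, 20 that are known for their use in S phase and 24 for their use in G2 and mitosis, and all 44 were found by symbol among the 27998 genes listed in 2 single-cell RNA-seq libraries of healed mouse skin. Both libraries came from wild type mice with a circular wound of 1.8 cm on the back. By the sample labels WT_LW wounds received PBS and TLR9agonist_LW wounds received ODN2395, a CpG oligonucleotide that activates the endosomal DNA sensor TLR9, at days 0, 3 and 6, and the skin was taken 2 days after the scab came off. The study also describes a control oligonucleotide for wounds named WT_LW, so which control these cells had is uncertain. Each library pooled cells of several male C57BL/6 mice from the wound centre, so there was 1 library per group and no replicate. No difference between the libraries could be tested against variation between animals, and every interval below is a 95% interval of counting error alone.

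A cell that divides first copies its DNA in S phase, for which it builds replication forks and the nucleotides they consume, and then separates the copies in mitosis, for which it builds a spindle, kinetochores and a cleavage furrow. The genes of the first step are largely switched on by E2F factors, and those of the second step by the MuvB complex with B-MYB and FOXM1. In healing skin, division is known in basal keratinocytes, which renew the epidermis, in fibroblasts, which fill the dermis, and in leukocytes that expand locally.

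The S members were the helicase subunits Mcm2, Mcm3, Mcm4, Mcm5, Mcm6 and Mcm7 with their partners Cdc45 and Gins2, the helicase loader Cdc6, the sliding clamp Pcna, the nucleotide enzymes Rrm1, Rrm2 and Tyms, the fork checkpoint adaptor Clspn, the clamp-bound ubiquitin ligase receptor Dtl, the chromatin proteins Hells, Uhrf1 and Chaf1b, the histone mRNA binding protein Slbp and the uracil glycosylase Ung. The G2M members were the kinase Cdk1 with Ccna2, Ccnb1, Ccnb2 and Cks2, the mitotic kinases Aurka, Aurkb and Bub1 with the Aurkb partner Birc5, the kinetochore genes Cenpa, Cenpe, Cenpf and Nuf2, the spindle genes Tpx2, Nusap1, Tacc3 and Kif11, the genes Cdc20 and Ube2c that act with the anaphase promoting complex, the cytokinesis genes Kif23 and Anln, and the chromosome genes Top2a, Mki67 and Hmgb2.

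The promoters of both groups differed in short sequence words. RefSeq promoters (GRCm38.p6, 250 bases before the start to 50 after it) were found for 39 of the 44 members, as 41 promoters, and each word was searched on both strands. GCGGGAA, a word that E2F factors are known to bind, was in 9 of 20 promoters of S members and in 0 of 21 of G2M members, against 4.6% of all 32851 promoters. TTTGGCGC, another such word, was in 4 of 20 and 0 of 21, against 0.514% of all. TTTGAA or TTCGAA, the known cell cycle homology region, was in 3 of 20 promoters of S members and in 14 of 21 of G2M members, against 19.2% of all. CCAAT was in 15 of 20 and in 16 of 21, against 37.4% of all. A word in a promoter does not show that a factor was bound there in these cells.

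To show the words in place, the 250 bases before the start are given for 2 S members and 2 G2M members, with every match in capitals. Cdc6 (chr11:98907901-98908150, plus strand) holds 1 GCGGGAA, and Mcm6 (chr1:128359706-128359955, minus strand) holds 2 TTTGGCGC and 2 CCAAT. Cdc20 (chr4:118437344-118437593, minus strand) holds 1 TTTGAA and 2 CCAAT, and Cdk1 (chr10:69352913-69353162, minus strand) holds 2 TTTGAA and 3 CCAAT.
Cdc6: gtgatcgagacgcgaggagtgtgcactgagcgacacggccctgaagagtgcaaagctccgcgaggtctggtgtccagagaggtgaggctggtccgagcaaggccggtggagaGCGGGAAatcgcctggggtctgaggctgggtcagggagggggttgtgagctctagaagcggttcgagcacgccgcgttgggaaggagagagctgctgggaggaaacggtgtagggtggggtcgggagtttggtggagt
Mcm6: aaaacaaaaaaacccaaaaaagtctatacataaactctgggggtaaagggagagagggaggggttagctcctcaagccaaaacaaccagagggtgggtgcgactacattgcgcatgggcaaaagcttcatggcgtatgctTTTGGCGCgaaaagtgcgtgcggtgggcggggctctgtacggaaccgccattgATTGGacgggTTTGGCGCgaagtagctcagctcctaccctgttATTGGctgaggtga
Cdc20: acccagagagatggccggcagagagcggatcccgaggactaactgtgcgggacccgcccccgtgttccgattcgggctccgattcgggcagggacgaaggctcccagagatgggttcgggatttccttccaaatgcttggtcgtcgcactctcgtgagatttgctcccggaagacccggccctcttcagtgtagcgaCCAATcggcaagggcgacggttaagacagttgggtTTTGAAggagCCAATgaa
Cdk1: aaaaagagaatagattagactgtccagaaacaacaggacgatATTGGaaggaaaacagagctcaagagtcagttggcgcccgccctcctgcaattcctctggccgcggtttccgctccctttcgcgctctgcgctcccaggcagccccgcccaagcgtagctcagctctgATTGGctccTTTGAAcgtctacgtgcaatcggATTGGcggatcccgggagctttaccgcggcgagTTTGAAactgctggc
ATTGG in these lines is CCAAT read on the other strand.

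The libraries held 12800 barcodes for WT_LW and 13751 for TLR9agonist_LW, of which 11443 and 13206 passed the filter on cells, and the 47 barcodes found in both were 0.367% of the smaller library. Cells were assigned to a cell type where at least 4 of its marker genes stood above the background of the library, which gave 621 and 1459 keratinocytes, 1133 and 2722 fibroblasts, 1405 and 1009 macrophages and monocytes, and 3079 and 3034 T cells. All markers of the matching list were found in at least 10% of cells in each of these 4 cell types in both libraries. The same markers chose the cells, so this is no independent check of the cell types. The summed keratinocyte markers were also at 818 CPM (UMIs per 1000000 UMIs of the cell type) in T cells of WT_LW and at 3462 in those of TLR9agonist_LW, against 55942 and 54243 in keratinocytes, so RNA of keratinocytes was present outside them and more so in the second library. The median depth was 10762 and 20356 UMIs in keratinocytes, 12417 and 11823 in fibroblasts, 8942 and 7885 in macrophages and monocytes, and 4342 and 4720 in T cells. Libraries differed in other ways too: the heat shock genes Hspa1a and Hspa1b together were higher in TLR9agonist_LW in all 4 cell types, by log2 ratios of 1.33 to 1.76, and their part in the results was not tested.

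Of the 4 cell types compared, T cells carried the highest levels of the cell cycle genes. Their 20 S members summed to 951 CPM in WT_LW and 583 in TLR9agonist_LW, while keratinocytes had 314 and 260, fibroblasts 346 and 204, and macrophages and monocytes 326 and 314. The G2M members other than Hmgb2 summed to 1339 and 948 CPM in T cells, 760 and 472 in keratinocytes, 468 and 208 in fibroblasts, and 430 and 367 in macrophages and monocytes. In WT_LW the counting intervals of the S sums overlapped between keratinocytes (303 to 325 CPM) and macrophages and monocytes (316 to 336 CPM), while that of fibroblasts (337 to 355 CPM) lay just above both. These intervals take UMIs as independent, although 46.5% of fibroblast S UMIs in WT_LW lay in 52 cells. No order is therefore read from so small a gap.

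**Figure D1:**
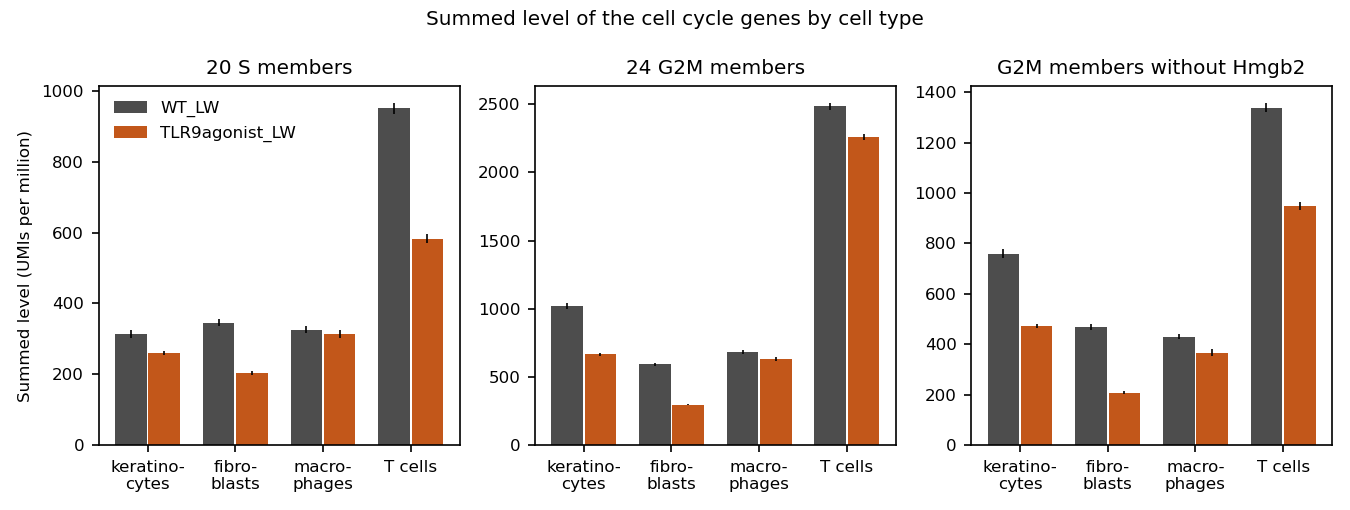
Bars give the summed level, in CPM, of the 20 S members, the 24 G2M members and the G2M members without Hmgb2, in each of 4 cell types and both libraries, with 95% Poisson intervals. Of these 4, T cells stand highest in every panel, and fibroblasts are lower in TLR9agonist_LW than in WT_LW in all 3.

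Gene by gene, T cells had the highest level of the 4 cell types for 36 of the 44 members in both libraries. Keratinocytes had the highest level in both for Anln, which builds the cleavage furrow, Ccnb1, the mitotic cyclin, and Cdc20, the activator of anaphase. Cdc20 stood at 25 and 22.1 CPM in keratinocytes of WT_LW and TLR9agonist_LW, against 15.2 and 7.3 in T cells. Fibroblasts had the highest level of no member in either library. Outside these 4, the few NK cells, 34 in WT_LW and 17 in TLR9agonist_LW, had 1000 CPM (873 to 1141) and 1105 CPM (912 to 1326) of S members, mast cells had 800 and 354 CPM, and Schwann cells had 593 and 400 CPM. For G2M members other than Hmgb2, NK cells had 2378 and 692 CPM, mast cells 1372 and 685 CPM, and basal keratinocytes 1352 and 936 CPM.

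Hmgb2, a chromatin protein that binds bent DNA, set much of the G2M sum in some cells. It stood at 1144 and 1313 CPM in T cells, where all 24 G2M members summed to 2484 and 2261 CPM, and at 538 CPM in neutrophils of both libraries. Neutrophils are known not to divide, and 0 of 39 in WT_LW and 0 of 165 in TLR9agonist_LW held 3 UMIs of Mki67 and Top2a, for which a limit of 3 counts allows shares of up to 7.69% and 1.82%. Their median depth was 2304 and 2365 UMIs, below that of T cells. Neutrophils also held G2M members other than Hmgb2, at 412 CPM (305 to 545) from 49 UMIs in WT_LW and 263 CPM (216 to 317) from 110 UMIs in TLR9agonist_LW, although none was called cycling. Macrophages and monocytes had 430 CPM (419 to 442) and 367 CPM (355 to 380), and suprabasal keratinocytes 82.6 and 97.3 CPM. Sums are given below with and without Hmgb2.

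A cell was called cycling where it held at least 3 UMIs of Mki67, a marker of all dividing cells, and Top2a, which untangles chromosomes. The share of such cells was 848 of 11443 or 7.41% in WT_LW and 646 of 13206 or 4.89% in TLR9agonist_LW. T cells made up 34.4% and 28% of all cycling cells, keratinocytes 8.25% and 22.9%, fibroblasts 6.13% and 10.2%, and macrophages and monocytes 8.73% and 7.89%. Cycling cells were deeper than the others of their type, with a median of 11142 against 4198 UMIs in T cells of WT_LW and of 10871 against 4629 in those of TLR9agonist_LW. As each library was 1 sample, a lower share of cycling cells and a higher number of other cells of the type cannot be told apart.

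**Figure D2:**
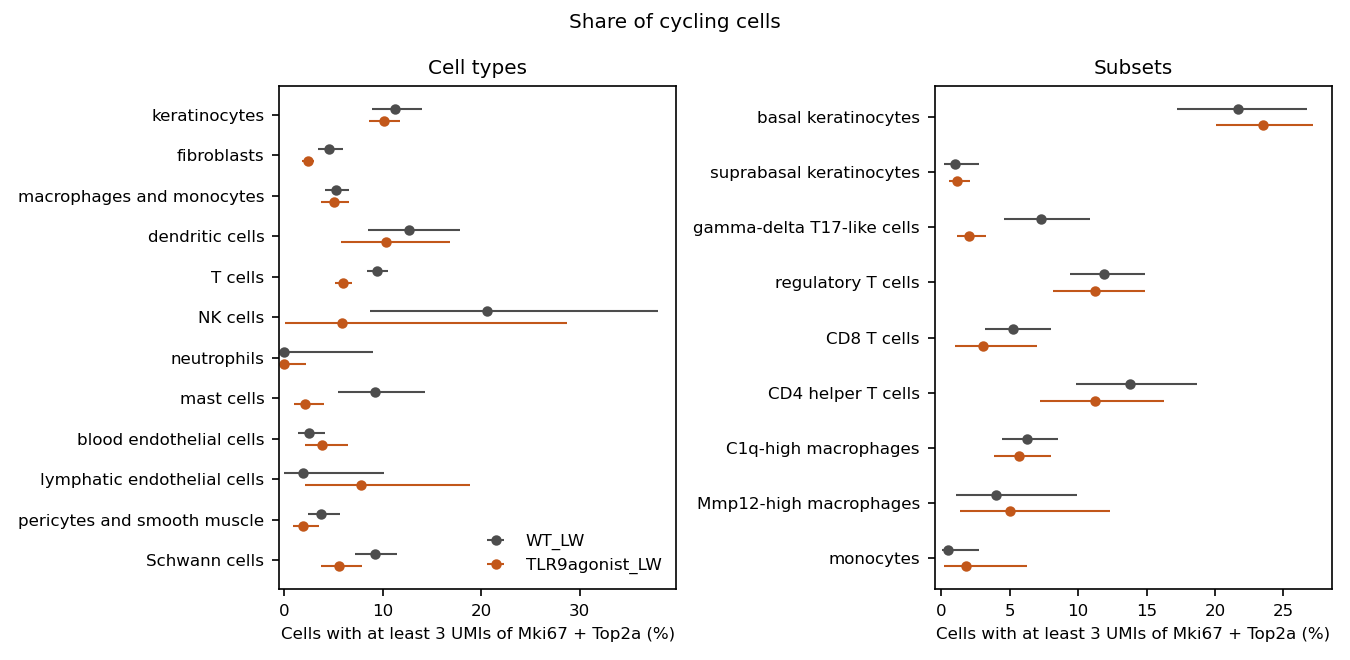
Points give the percent of cells with at least 3 UMIs of Mki67 and Top2a in 12 cell types (left) and 9 subsets (right) of WT_LW and TLR9agonist_LW, with 95% exact binomial intervals. The intervals of the libraries do not overlap in fibroblasts, T cells, mast cells and γδT17-like cells.

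Fibroblasts and T cells had lower cycling shares in TLR9agonist_LW. In fibroblasts 52 of 1133 or 4.59% were cycling in WT_LW and 66 of 2722 or 2.42% in TLR9agonist_LW, a log2 ratio of -0.92 (-1.47 to -0.37). T cells had 292 of 3079 or 9.48% and 181 of 3034 or 5.97%, a log2 ratio of -0.67 (-0.94 to -0.40). Macrophages and monocytes, at 5.27% and 5.05%, had a log2 ratio of -0.06 with an interval from -0.60 to 0.47, which holds both a lower and a higher share.

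In keratinocytes the shares were 70 of 621 or 11.3% and 148 of 1459 or 10.1%, a log2 ratio of -0.15 (-0.57 to 0.28), but this comparison moved with depth. After each cell was thinned to 3000 UMIs, with 184 and 225 shallower keratinocytes left out, the expected shares were 5.93% and 2.92%, a log2 ratio of -1.02 (-1.79 to -0.24). Thinned to 8000 UMIs, a depth chosen after the values were seen, they were 11.2% and 8.78%, a log2 ratio of -0.36 (-0.91 to 0.22). No direction is therefore read from the keratinocyte share. At 3000 UMIs the fibroblast shares were 2.38% and 1.12% and those of macrophages and monocytes 1.95% and 1.82%. Those of T cells were 7.06% and 3.83%, with 408 and 215 shallower T cells left out. T cells thus stood first of the 4 in both libraries at equal depth, with intervals that overlapped those of keratinocytes in both. Without thinning keratinocytes stood first in both, at 11.3% and 10.1% against 9.48% and 5.97% in T cells.

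**Figure D3:**
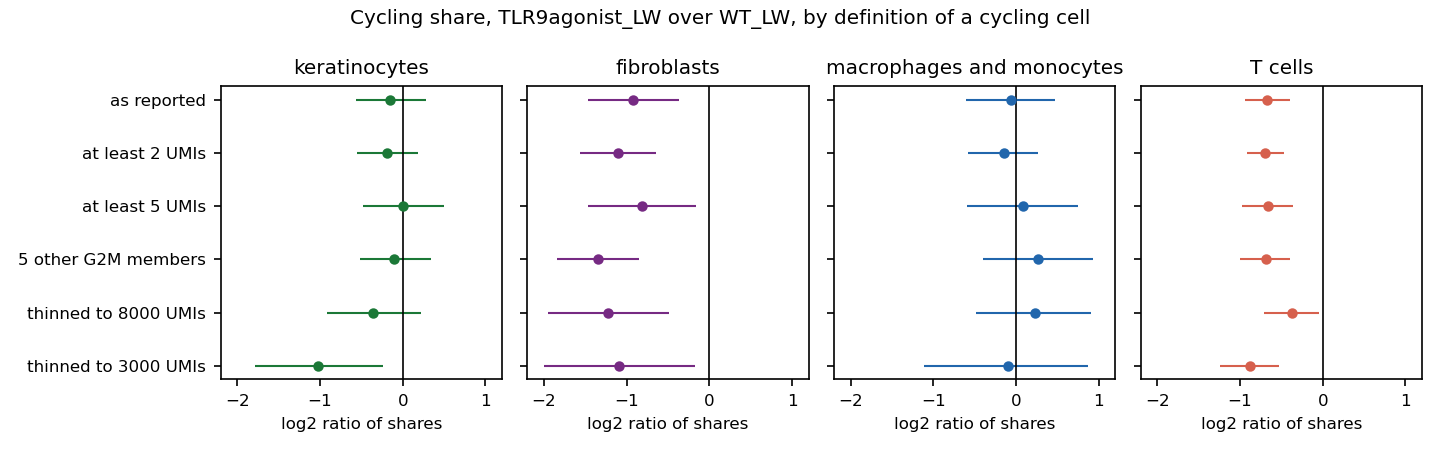
Points give the log2 ratio of the cycling share in TLR9agonist_LW over WT_LW with its 95% interval, for 6 definitions of a cycling cell in each of 4 cell types. All 6 intervals lie below 0 in fibroblasts and T cells, while in keratinocytes only the ratio at 3000 UMIs does. The T cell ratio at 8000 UMIs rests on 359 and 290 deep cells, with cycling shares of 54.3% and 41.9%.

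Within keratinocytes, cycling cells were basal. Basal keratinocytes, which carry more UMIs of genes such as Krt5 and Krt14 than of genes such as Krt1 and Krt10, had 67 of 309 or 21.7% cycling cells in WT_LW and 138 of 587 or 23.5% in TLR9agonist_LW. The direction turned with depth: basal cells had a median of 13687 and 21617 UMIs, and at 3000 UMIs the shares were 10.4% and 6.44%, a log2 ratio of -0.69 (-1.46 to 0.10). Suprabasal keratinocytes had 3 of 312 or 0.962% and 10 of 872 or 1.15%. Basal cells were 49.8% of keratinocytes in WT_LW and 40.2% in TLR9agonist_LW, and at the basal share of WT_LW the keratinocytes of TLR9agonist_LW would have had 12.3% cycling cells, from shares without thinning.

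Among T cells, the γδT17-like cells, named for markers such as Cd163l1, Blk and Il23r, showed the widest gap. They had 21 of 288 or 7.29% cycling cells in WT_LW and 16 of 793 or 2.02% in TLR9agonist_LW, a log2 ratio of -1.85 (-2.89 to -0.85), and at 3000 UMIs of -2.16 (-3.71 to -0.69). Regulatory T cells had 11.9% and 11.2%, CD4 helper T cells 13.8% and 11.2%, and CD8 T cells 5.22% and 3.07%, with overlapping intervals in each, and the difference between subsets was not tested. The γδT17-like cells were 9.35% of T cells in WT_LW and 26.1% in TLR9agonist_LW. With the subset make-up of WT_LW, the T cells of TLR9agonist_LW would have had 6.88% cycling cells in place of 5.97%.

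For single genes, levels in both libraries were set against the shift of all genes. Over genes with at least 50 UMIs, the median log2 ratio of TLR9agonist_LW over WT_LW was -0.52 in keratinocytes, -0.28 in fibroblasts, -0.23 in macrophages and monocytes and -0.27 in T cells. Where a pair of values is given, WT_LW comes first. A member was counted as past the fold where its log2 ratio relative to that median gene was beyond 1.5-fold.

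The fibroblast members were lower together. All 44 were below 0 on both scales, with a median log2 ratio of -1.13 in CPM and -0.85 relative to the median gene, and 33 of 44 were past the fold downward against 10.1% of all 12627 genes, while 0 were past it upward against 13.6%. Clspn, which relays fork stress to CHK1, stood at 13.9 and 3.63 CPM and had the lowest log2 ratio at -1.93 (-2.27 to -1.61). Uhrf1, which carries DNA methylation through replication, was at 11.1 and 3.42 CPM (log2 ratio -1.69). Cenpf, a kinetochore and fibrous corona protein, was at 34.9 and 10.6 CPM, with a log2 ratio of -1.73 (-1.92 to -1.53).

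Members of the fibroblast list did not differ to the same extent. Pcna, with the highest level of the S members at 47.9 and 38.6 CPM, had the smallest difference at a log2 ratio of -0.31 (-0.44 to -0.18), which is -0.03 relative to the median gene. Hmgb2, with the highest level of the G2M members at 123 and 88.5 CPM, had a log2 ratio of -0.48. Slbp, Tyms, Mcm7 and Cdc20 were likewise within 1.5-fold, at -0.11, -0.21, -0.21 and -0.20 relative to the median gene. The mitotic cyclins were among the largest differences: Ccnb1 was at 11.1 and 3.39 CPM and Ccnb2 at 16.4 and 5.54 CPM. Within the cells that were cycling, the G2M members other than Mki67, Top2a and Hmgb2 summed to 3296 and 3387 CPM, a log2 ratio of 0.04 (-0.02 to 0.10). In fibroblasts outside the cycling call the same members summed to 101 and 64.2 CPM, a log2 ratio of -0.65 (-0.75 to -0.55).

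The S members of cycling fibroblasts did differ. They summed to 1787 CPM in the 52 cycling fibroblasts of WT_LW and to 1097 CPM in the 66 of TLR9agonist_LW, a log2 ratio of -0.70 (-0.80 to -0.60). Of all UMIs of S members in fibroblasts, 46.5% lay in cycling cells in WT_LW and 18.2% in TLR9agonist_LW, where these cells held 8.99% and 3.38% of all fibroblast UMIs. For Rrm2, the ribonucleotide reductase subunit that is made in S phase, these shares were 76.2% and 29.1%. Fibroblasts outside the cycling call had 203 and 173 CPM of S members, so the gap between the libraries was wider in the cells that were cycling. The cycling fibroblasts had a median of 24997 UMIs in WT_LW and 15496 in TLR9agonist_LW, so the same cut of 3 UMIs chose cells of unlike depth. The part of depth in this gap was not tested.

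In T cells the S members were lower as a group, and the G2M members were lower apart from 3. Over the 44 members 22 were past the fold downward against 13.9% of all 11496 genes, and 1 was past it upward against 14.7%. All 20 S members were below 0 in CPM, with a sum at a log2 ratio of -0.71 (-0.74 to -0.67), or -0.43 relative to the median gene. Relative to the median gene Hells, at 0.17, and Ung, at 0.06, were above 0. Pcna, the S member with the highest level in WT_LW, stood at 147 and 75.3 CPM, and Slbp, the highest in TLR9agonist_LW, at 131 and 105 CPM. Dtl, which marks Cdt1 for degradation, was at 28.2 and 11.4 CPM with a log2 ratio of -1.31 (-1.56 to -1.06), and Rrm2 at 49.8 and 22.6 CPM. The helicase subunits ranged from -1.05 for Mcm5 to -0.45 for Mcm4.

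Of the mitotic genes in T cells, Cenpe, the kinesin that carries chromosomes to the spindle equator, had the lowest log2 ratio, from 38.5 to 12.9 CPM (-1.58, -1.81 to -1.35). Birc5, the survivin subunit of the chromosomal passenger complex, was at 87.8 and 36.9 CPM, Ube2c, which tags cyclin B for destruction, at 98 and 45.4 CPM, and Mki67 at 194 and 91.6 CPM. In the opposite direction Cenpa, the histone H3 variant of centromeres, stood at 153 and 256 CPM. Its log2 ratio was 0.74 (0.67 to 0.81), or 1.01 relative to the median gene. Hmgb2 was at 1144 and 1313 CPM, and Cks2, the small Cdk1 subunit, at 164 and 169 CPM. The whole G2M sum therefore moved with the scale, at a log2 ratio of -0.14 in CPM and 0.13 relative to the median gene, while without Hmgb2 it was -0.50 and -0.23.

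**Figure D4:**
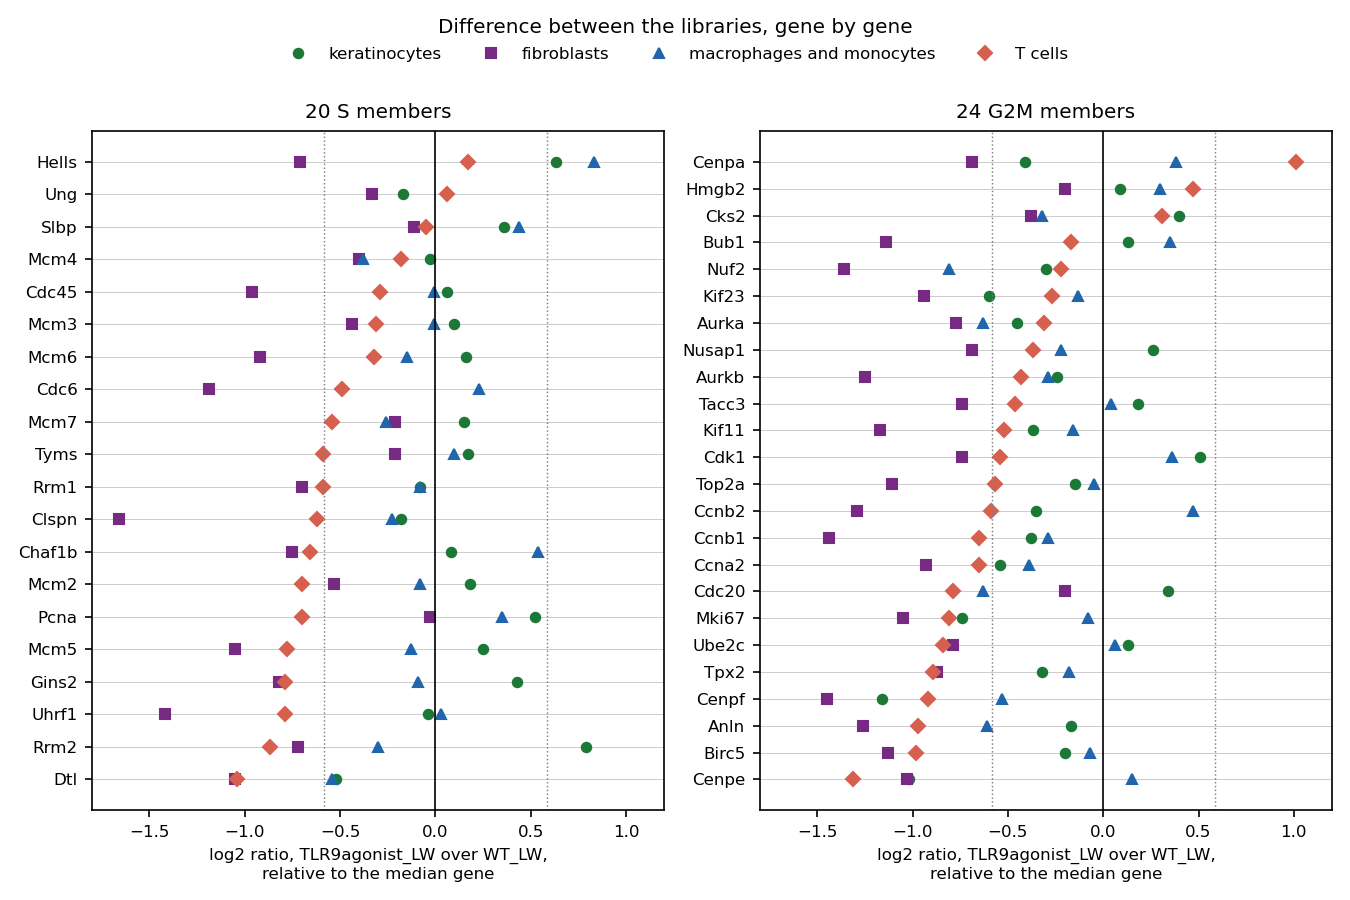
Each row is a member and each symbol a cell type, with the log2 ratio of TLR9agonist_LW over WT_LW relative to the median gene of that cell type on the x axis, for members with at least 50 UMIs, and dotted lines at 1.5-fold. Fibroblast symbols all lie left of 0, and Cenpa in T cells lies farthest right.

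In the γδT17-like cells 28 of the 44 members had at least 50 UMIs, and 21 of these were past the fold downward against 18.3% of 7188 genes, while 1 was past it upward against 18.9%. Their S members summed to 829 and 376 CPM, and Pcna was at 146 and 59.3 CPM. In regulatory T cells 9 of 41 counted members were past the fold downward against 11.9% of all genes and 0 upward against 11.1%, in CD8 T cells 10 of 24 against 14.9% and 3 against 12%, and in CD4 helper T cells 10 of 32 against 12.5% and 3 against 12.2%. The 1 member upward in γδT17-like cells was Cenpa, at 202 and 292 CPM. Cenpa was also higher in TLR9agonist_LW in CD8 T cells, at 85.2 and 190 CPM, in regulatory T cells, at 200 and 256 CPM, in CD4 helper T cells, at 151 and 208 CPM, and in dendritic cells, at 231 and 357 CPM. Keratinocytes, at 56 and 29.5 CPM, and fibroblasts, at 36.3 and 18.5 CPM, had lower Cenpa in TLR9agonist_LW.

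Keratinocytes had few members past the fold. Of 43 counted members 4 were past it downward against 15% of all 11252 genes and 2 upward against 15.3%, with a median of -0.04 relative to the median gene and of -0.55 in CPM, so a share no larger than that of all genes was past the fold. In CPM without that centring, 20 were past it downward against 44.9% of all genes and 0 upward against 5.39%. Downward were Cenpf, at 56.8 and 17.8 CPM with a log2 ratio of -1.68 (-1.85 to -1.50), Cenpe, at 31.8 and 10.9 CPM, Mki67, at 87.7 and 36.8 CPM, and Kif23, a motor of the spindle midzone, at 10.9 and 5.05 CPM. Upward relative to the median gene were Rrm2, at 15.5 and 18.7 CPM with a log2 ratio of 0.27 (0.01 to 0.54), and Hells, a chromatin remodeller, at 13.6 and 14.7 CPM.

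The scale set the direction of the S members in keratinocytes, whose sum had a log2 ratio of -0.27 in CPM and 0.25 relative to the median gene. Pcna, the S member with the highest level, stood at 52 and 51.9 CPM. The G2M sum of all keratinocytes together was lower on both scales, at -0.62 and -0.10, and Hmgb2, the highest G2M member, was at 260 and 193 CPM. Within the subsets the G2M sum was at -0.47 in CPM and -0.02 relative to the median gene in basal cells. In suprabasal cells it was at 0.03 and 0.47. Cdk1, at 22.5 and 22.4 CPM, and its subunit Cks2, at 93.3 and 86.3 CPM, had nearly equal CPM in both libraries, whereas Ccna2, at 18.2 and 8.74 CPM, did not. In basal keratinocytes alone, 3 of 43 counted members were past the fold upward and 2 downward, each against 14.7% of 10157 genes.

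In macrophages and monocytes the members lay close to the median gene. Of 43 counted members 4 were past the fold downward against 6.47% of all 10436 genes and 1 upward against 11.1%, with a median of -0.08. In CPM without centring 8 were downward against 16.4% and 1 upward against 6.86%. Nuf2, part of the microtubule-binding kinetochore complex, was at 3.1 and 1.51 CPM, from 42 and 13 UMIs, with a log2 ratio of -1.04 (-2.06 to -0.12). The other 3 downward were Aurka and Cdc20, each from 60 and 21 UMIs, and Anln, from 79 and 28 UMIs, and Hells, at 6.78 and 10.3 CPM, was the 1 upward with a log2 ratio of 0.60 (0.17 to 1.04). Without the cells of high doublet scores 0 members were downward and 2 upward, of the 41 that still had at least 50 UMIs. Pcna, at 87.9 and 95.3 CPM, and Hmgb2, at 253 and 265 CPM, had the highest levels of their lists. The direction of both sums moved with the scale: the S members had a log2 ratio of -0.06 in CPM and 0.18 relative to the median gene, and the G2M members -0.11 and 0.12. Mmp12-high macrophages, 100 and 80 cells, had CPM log2 ratios of 0.46 (0.23 to 0.69) for S and 0.41 (0.24 to 0.59) for G2M members. C1q-high macrophages had 0.02 (-0.08 to 0.12) and -0.16 (-0.24 to -0.09), and monocytes -0.16 (-0.41 to 0.09) and -0.07 (-0.23 to 0.08). The difference between these subsets was not tested.

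In basal keratinocytes and T cells most G2M members had the bulk of their UMIs in cycling cells. In basal keratinocytes of WT_LW 95.5% of Ccna2 UMIs, 94.9% of Cdk1 UMIs and 98.8% of Aurkb UMIs lay in the 67 cycling cells, which held 37.1% of all UMIs. T cells of WT_LW had 94.1% of Ccna2 UMIs, 93.4% of Aurkb UMIs and 93.1% of Nusap1 UMIs in cycling cells, which held 22.6% of all UMIs. The S members reached lower shares, from 36.5% for Slbp to 88.8% for Rrm2 in T cells of WT_LW.

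Cenpa, Hmgb2, Cks2, Slbp and Pcna had a large part of their UMIs outside cycling T cells. For Cenpa 36.2% of UMIs lay in cycling T cells of WT_LW and 16% in those of TLR9agonist_LW, which held 22.6% and 13.9% of all T cell UMIs, and T cells outside the cycling call had 126 and 250 CPM of it. Hmgb2 had 62.5% and 41.2% in cycling cells with 554 and 896 CPM in the other T cells, and Cks2 had 46.1% and 28.9% with 114 and 140 CPM. In macrophages and monocytes the shares were lower, at 79.2% and 68.5% for Ccna2, 62.8% and 56.1% for Cdk1 and 61.7% and 23.8% for Aurka. Cenpa had 13.1% (11.3% to 15.1%) and 9.89% (8.01% to 12%) of its UMIs in cycling cells, which held 8.69% and 8.2% of all UMIs. Its share was therefore above an even spread in WT_LW, while the interval of TLR9agonist_LW held an even spread. In basal keratinocytes the Cenpa shares were 91.1% and 79.8%.

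**Figure D5:**
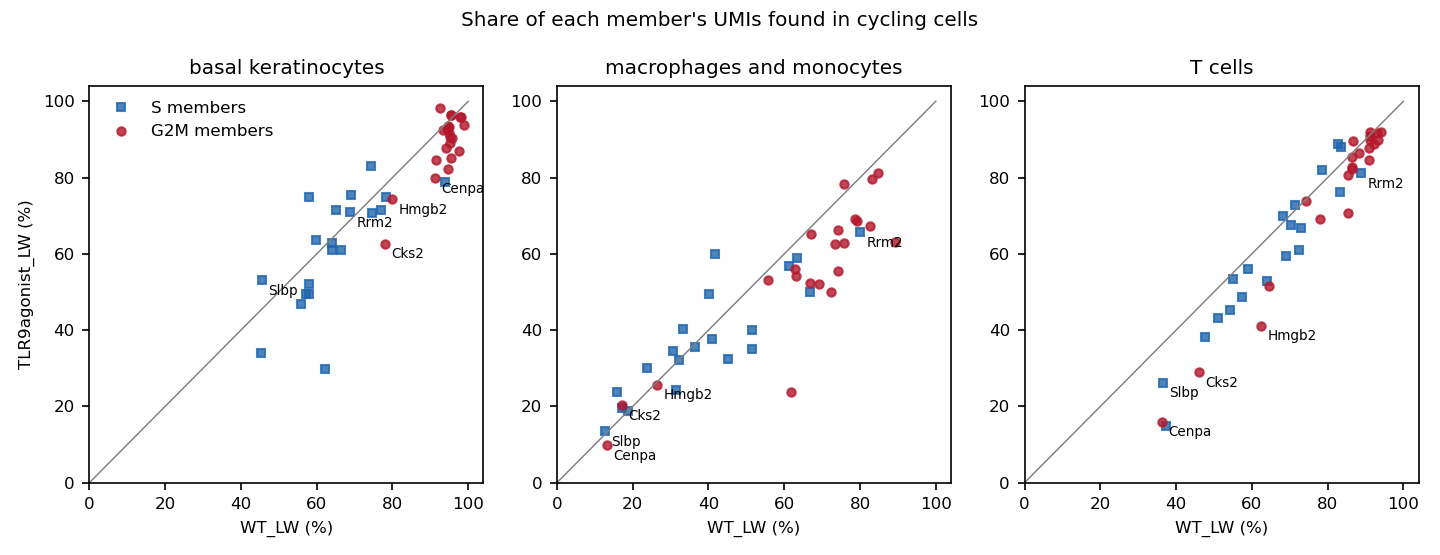
Each point is a member other than Mki67 and Top2a, which chose the cells, with the percent of its UMIs found in cycling cells in WT_LW (x axis) and TLR9agonist_LW (y axis), for basal keratinocytes, macrophages and monocytes, and T cells. Ccna2 lies at 95.5% and 96.3% in basal keratinocytes and at 94.1% and 92% in T cells, while Cenpa lies at 36.2% and 16% in T cells and at 13.1% and 9.89% in macrophages and monocytes.

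The balance of S to G2M members within cycling cells differed between cell types. The log2 ratio of S UMIs to the UMIs of G2M members other than Mki67, Top2a and Hmgb2 was -0.28 and -0.30 in cycling T cells of WT_LW and TLR9agonist_LW and -0.67 and -0.37 in macrophages and monocytes. It was -1.63 and -1.26 in keratinocytes. Their cycling cells thus carried relatively more G2M message than those of T cells or of macrophages and monocytes in both libraries. Fibroblasts had -0.88 (-0.95 to -0.81) in WT_LW and -1.63 (-1.72 to -1.53) in TLR9agonist_LW. These cells were chosen by 2 G2M members, so cells in early S phase were counted less often. Cycling fibroblasts also differed in depth between the libraries, as given above. Cycling keratinocytes had a median of 28409 and 27806 UMIs, against 11142 and 10871 in cycling T cells. The cut of 3 UMIs thus chose cells of unlike depth in these cell types, and the part of depth was not tested.

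Other cycle genes were counted on lists that do not contain the members. Of 14 CDK inhibitors and arrest genes 7 were past the fold upward and 0 downward in keratinocytes, in fibroblasts and in T cells, and 5 of 12 upward and 0 downward in macrophages and monocytes, against the 15.3%, 13.6%, 14.7% and 11.1% of all genes given above. In CPM without centring the keratinocyte list had 5 of 14 upward against 5.39% of all genes, and 5 downward against 44.9%. In fibroblasts Cdkn2a, which encodes the CDK4 and CDK6 inhibitor p16 and the MDM2 inhibitor ARF, stood at 13.9 and 69 CPM (log2 ratio 2.31, 2.11 to 2.51). Its neighbour Cdkn2b was at 18.7 and 42.9 CPM. Cdkn1c, which encodes p57, was at 9.36 and 28.3 CPM in macrophages and monocytes, and Gadd45a, a growth arrest gene, at 23.1 and 60.3 CPM in keratinocytes. Gadd45b and Btg1, which are also known to respond to stress, were higher in all 4 cell types, with Gadd45b at 548 and 1443 CPM and Btg1 at 1709 and 2968 CPM in T cells, where Hspa1a and Hspa1b together were at 2087 and 7063 CPM. The part of cell stress in these values was not tested.

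The lists of other cycle genes were counted against the same shares of all genes. In T cells 4 of 8 G1 cyclins and kinases, 5 of 12 cycle transcription factors, 12 of 29 other replication genes and 19 of 43 other mitosis genes were past the fold downward, against 13.9% of all genes, with Ccne1, the cyclin of S phase entry, at 9.03 and 3.29 CPM, E2f2 at 24.5 and 8.22 CPM and Hmmr, a spindle protein, at 26.7 and 9.49 CPM. In fibroblasts 10 of 27 other replication genes and 25 of 43 other mitosis genes were past it downward and 0 upward, against 10.1% of all genes downward, with Hmmr at 15.3 and 4.81 CPM, Pbk at 8.38 and 2.69 CPM and Cdca3 at 17.2 and 5.66 CPM. The fibroblast G1 cyclins and kinases, 3 of 8, and transcription factors, 3 of 12 downward, both had a median of -0.18 relative to the median gene. Keratinocytes had 7 of 43 other mitosis genes downward, close to the 15% of all genes, among them Aspm, at 17.9 and 4.88 CPM, Cit, at 11.5 and 3.21 CPM, and Cdc25b, at 17.8 and 5.46 CPM. In macrophages and monocytes 1 of 8 G1 cyclins and kinases was downward, Ccnd2 at 27.1 and 13.4 CPM, and 1 upward, Ccnd1 at 45.8 and 60 CPM. Of 24 other replication genes 1 was downward and 1 upward, with the licensing factor Cdt1 at 27.3 and 13.8 CPM. The shares of all genes in these cells were 6.47% downward and 11.1% upward.

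Transcript length moved with the differences between the libraries. Across members the Spearman correlation of the longest annotated transcript with the log2 ratio was -0.29 in keratinocytes (43 members), -0.34 in fibroblasts (44), 0.01 in macrophages and monocytes (43) and -0.21 in T cells (44), and across all genes it was -0.20, -0.18, -0.14 and -0.19. All genes share the same libraries and depth, so these values are a description. Cenpf, Mki67 and Cenpe, at 11130, 10061 and 7910 bases, are the longest of the 44 and were among the lowest log2 ratios in keratinocytes, and the part of length in that result was not tested.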

How the data were processed

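Dissociated wound skin was profiled on the 10x Genomics 3' platform in 2 libraries, 1 per group as the labels name them. The deposited values are UMI counts per gene and barcode that the authors made with Cell Ranger (4.0.0 in the file header), and the submitters' notes also name fastp, Seurat and the build mm9. Barcodes with at least 500 UMIs, 300 genes and at most 15% mitochondrial UMIs were kept. A marker was on where its UMIs exceeded (Poisson p under 0.01) its level in the cells at or below the library's median score for that marker list, a cell type needed 4 markers on, and cells that met several unrelated types were called mixed and left out. Scrublet's automatic threshold called 0 cells, so doublets were not removed, and leaving out the 8% of cells with the highest scores was an alternative. UMIs were summed per cell type and library and scaled to 1000000 UMIs of that cell type (CPM), with a pseudocount of 0.5 in log2 ratios across all genes. Tissue was separated into epidermis and dermis before dissociation, per the study's methods. Intervals are exact Poisson, Clopper-Pearson or conditional binomial at 95%, with no test, since each group was 1 library. Thinned shares are expected values. The 44 members and all lists were chosen with earlier results of these data known. All members are named. Per cell type, the highest S and G2M members and those with the largest and smallest log2 ratios (at least 50 UMIs) are given, and of other cycle genes past the fold at most 6 with at least 200 UMIs. Genes named beyond this rule, and Hspa1a and Hspa1b, were chosen after their values were seen. Other thresholds, gates, depths, weights and scales were tried as alternatives. Promoters of Mcm4, Gins2, Aurkb, Ccna2 and Tpx2 were not used here. The calculations used scipy 1.17.1 and numpy 2.4.6 under Python 3.11.15, with Scrublet from scanpy 1.11.5 and plots from matplotlib 3.10.9, and were tested on simulated data.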

Additional observations from a re-analysis of the deposited data

Results flagged for a closer look

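Cells that the comparisons left out also held cycling cells. Among cells with markers of several unrelated cell types, 14.2% were cycling in WT_LW and 7.56% in TLR9agonist_LW, and 49.3% and 60.4% of these cycling cells were among those with the highest doublet scores. Among cells that met no cell type, 3.42% (2.61% to 4.4%) were cycling in WT_LW and 1.52% (0.974% to 2.25%) in TLR9agonist_LW. The cell types of these cells are not known.

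The members Rrm2, Hells, Cenpa and Hmgb2 had counting intervals on opposite sides of 0 in different cell types, and the difference between cell types was not tested. Rrm2 had a log2 ratio of TLR9agonist_LW over WT_LW of 0.27 in keratinocytes, -1.0 in fibroblasts and -1.14 in T cells. Hells had 0.60 in macrophages and monocytes and -0.99 in fibroblasts. Cenpa had 0.74 in T cells and 0.15 in macrophages and monocytes, against -0.92 in keratinocytes and -0.97 in fibroblasts. Hmgb2 had 0.20 in T cells and -0.48 in fibroblasts.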

How the results depend on the processing

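With 1 library per group, no library could be left out and nothing measures variation between animals. No paired analysis was possible because each group has 1 library. Of 36 cycling shares under alternatives 34 moved by less than the counting interval, and the others were the log2 ratio of keratinocytes at 3000 UMIs (-1.02) and of T cells at 8000 UMIs (-0.37), where 359 and 290 T cells were left. The expected cycling shares of these deep T cells were 54.3% and 41.9%, so they do not stand for all T cells. The depth of 8000 UMIs, the 5 other G2M members (Birc5, Ube2c, Cdk1, Ccnb2 and Ccna2) and the sums without Hmgb2 were chosen after seeing the data. Relative to the median gene, the S sums were 0.25 in keratinocytes, -0.48 in fibroblasts, 0.18 in macrophages and monocytes and -0.43 in T cells, and the G2M sums -0.10, -0.72, 0.12 and 0.13. Without high doublet scores the keratinocyte sums were -0.14 (S) and -0.51 (G2M), and the G2M sums -0.92 in fibroblasts and 0.00 in macrophages and monocytes. With mixed cells kept the S sums were -0.34 in keratinocytes and -0.69 in fibroblasts, and the G2M sums -0.66 in keratinocytes, -0.72 in fibroblasts, -0.22 in macrophages and monocytes and -0.18 in T cells. With equal weight per cell the S sums were -0.38 in keratinocytes, -0.57 in fibroblasts and -0.60 in T cells, and the G2M sums -0.49, -0.91 and 0.13. A stricter gate gave -0.66 for S in T cells and -0.22 for G2M in macrophages and monocytes. Without Hmgb2 the G2M sums were -0.69 in keratinocytes, -1.17 in fibroblasts, -0.23 in macrophages and monocytes and -0.50 in T cells. Members past the fold numbered 20 in keratinocytes and 9 in macrophages and monocytes in CPM without centring, and in the latter 2, both upward, without high doublet scores. The cause of these differences was not tested.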

Other observations

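Cell types with fewer cells also held cycling cells. Mast cells, which store histamine and proteases, had 17 of 185 or 9.19% in WT_LW and 9 of 414 or 2.17% in TLR9agonist_LW, a log2 ratio of -2.08 (-3.43 to -0.83), but at 3000 UMIs, where 77 and 76 mast cells were left, the ratio was -0.91 (-3.04 to 0.95). Schwann cells, the glia of skin nerves, had 71 of 772 or 9.2% and 29 of 521 or 5.57%, a log2 ratio of -0.72 (-1.40 to -0.08), and at 3000 UMIs of -0.64 (-1.51 to 0.18). Pericytes and smooth muscle had 3.81% and 1.92%, blood endothelial cells 2.57% and 3.91%, and dendritic cells 12.7% and 10.4%, each with a ratio interval that held 0. At 3000 UMIs the pericyte and smooth muscle ratio was -2.24 (-5.39 to -0.07), and their G2M members summed to 776 and 323 CPM, a log2 ratio of -1.26 (-1.35 to -1.18). The G2M log2 ratio was -0.96 in mast cells and -0.36 in Schwann cells. In dendritic, blood endothelial and lymphatic endothelial cells it was 0.10, 0.16 and 0.61 (0.39 to 0.84), and without Hmgb2 -0.11, -0.16 and 0.88. Of lymphatic endothelial cells 1 of 53 was cycling in WT_LW and 4 of 51 in TLR9agonist_LW.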
